A study of Canis lupus familiaris with 77 samples.

Results

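MicroRNAs (miRNAs) of the ileum, the last segment of the small intestine, were compared with those of the colon. Samples were chosen by their tissue label, and these 9 libraries (5 of ileum and 4 of colon) came from 76 libraries with values, out of 77 labelled samples of 16 tissues. All were untreated male Beagle dogs, 10 months old in the study's methods, whose vessels were flushed with phosphate buffered saline before the organs were taken. One further labelled colon sample, Colon 4, was not used here. Each value is the number of small RNA reads on a miRNA, measured by miR-seq (sequencing of RNA of miRNA length) and given as RPM, the reads of a miRNA scaled by all miRNA reads of its library. The study took every tissue from the same 5 dogs, but the labels carry no dog number, so ileum and colon were compared as unpaired groups and p-values measure the spread between these samples. The labels name the gut segment and not the layers of its wall that were taken. A sample can hold epithelium, muscle, vessels and immune cells. Fewer cells of a type and less RNA per cell therefore cannot be told apart in any value below.

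A miRNA is a short RNA that guides Argonaute proteins to messenger RNAs with a matching site and lowers their translation or stability. The ileum carries villi lined by absorptive enterocytes, takes up bile acids and holds much lymphoid tissue in its wall, whereas the colon has crypts without villi, many goblet cells and a thicker muscle coat. Both surfaces are covered by epithelium of endodermal origin, for which miR-192, miR-194 and miR-215 are well known, and both are surrounded by smooth muscle rich in miR-143 and miR-145. No mature sequences were at hand for these miRNAs, and none are shown.

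Ileum and colon held reads of nearly the same number of miRNAs. Of 650 miRNAs with a read in any tissue, 516 had one in ileum, 514 in colon and 541 in either. After every library was thinned to 527023 reads, an ileum library held 362.2 ± 14.2 miRNAs (SD, n = 5) and a colon library 361.75 ± 21.1 (SD, n = 4), with a difference of 0.45 (two-sided exact permutation test, p = 1.0, adjusted p = 1.0 over 2 such values). The 10 most abundant miRNAs took 72.1% ± 4.48 of the reads of an ileum library and 75.9% ± 5.30 of a colon library (exact permutation p = 0.286, adjusted p = 0.572), and 0.0159 is the smallest p that 5 against 4 samples allow. The 5 miRNAs with the highest median level were the same in both tissues and in the same order. These were miR-143, miR-192, miR-10b, miR-10a and miR-21, with medians of 248702, 154549, 77278, 62087 and 57124 RPM in ileum and of 352130, 155908, 71575, 55519 and 36333 RPM in colon. None of these 5 differed by the test used for all miRNAs (described with the first called miRNAs), whose adjusted p ranged from 0.511 for miR-143 to 0.879 for miR-10a. Spearman correlations across the 541 miRNAs had a median of 0.921 between ileum and colon libraries, 0.939 within ileum and 0.940 within colon, as a description, since all libraries share the same abundant miRNAs.

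Libraries of 1 tissue differed widely in their most abundant miRNAs. The smooth muscle miRNA miR-143 made 25.2%, 13.8%, 13.6%, 43.1% and 24.9% of the reads of Ileum 1 to Ileum 5, and 38.6%, 43.7%, 31.9% and 13.2% of those of Colon 1, Colon 2, Colon 3 and Colon 5. The epithelial miR-192 made 15.5%, 25.4%, 22.8%, 5.74% and 5.59% of the reads of the 5 ileum libraries, and 13.2%, 10.4%, 17.9% and 20.5% of those of the 4 colon libraries, in the same order. Ileum 4 and Ileum 5 were thus low in the epithelial miRNA, Ileum 4 was the highest of the ileum libraries in the muscle miRNA, and Colon 5 was the lowest of the colon libraries in miR-143 and the highest in miR-192. The groups overlapped in both miRNAs, as the plot of miR-143 against miR-192 shows. Because of this spread, a second fit with the log2 ratio of miR-143 to miR-192 reads as a covariate was added after the data were seen, and its values are given beside the main ones. The part of this ratio in the differences was not tested in any other way.

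**Figure D1:**
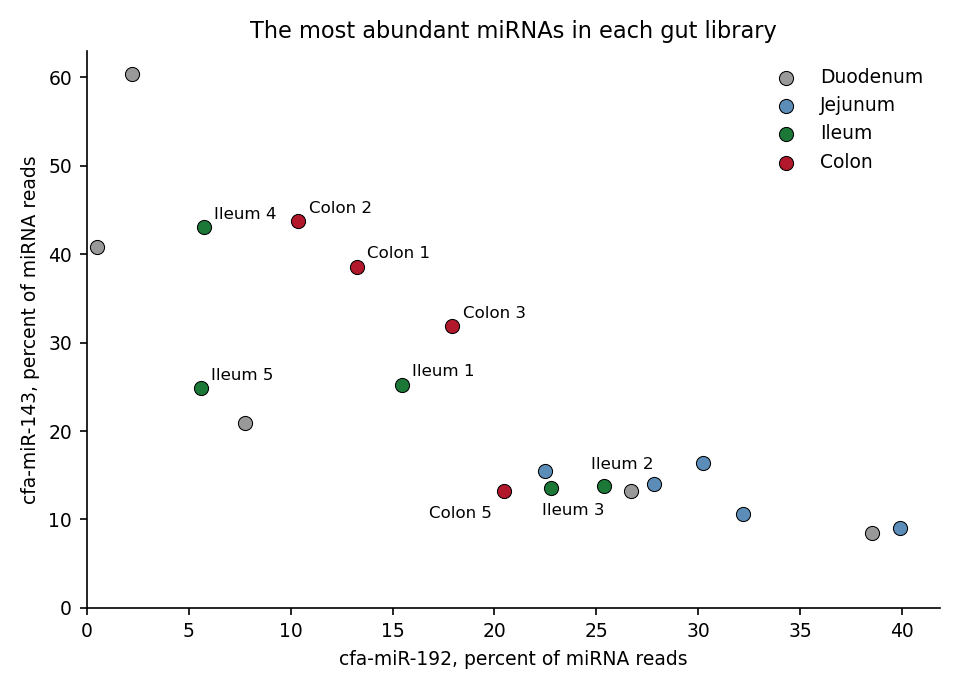
Share of miRNA reads on cfa-miR-143 (vertical axis, percent) against cfa-miR-192 (horizontal axis, percent), with 1 point per library of duodenum, jejunum, ileum and colon. Ileum and colon points are interspersed: Ileum 4 lies near Colon 2, and Colon 5 near Ileum 2 and Ileum 3, while the jejunum points all have over 22% of miR-192.

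The labelled tissues carried the miRNAs known for gut, and 4 markers of other organs were at or near 0. The highest level in any ileum or colon library was 2.39 RPM for miR-122 of liver, 4.76 RPM for miR-124 of brain, 3.04 RPM for miR-217 of pancreatic acinar cells and 0 for miR-206 of skeletal muscle, against 29156.5 RPM, 4574 RPM, 6274 RPM and 817 RPM in the highest library of another tissue. Muscle miRNAs were present: miR-499 of heart and slow muscle ranged from 29.5 to 62.7 RPM in ileum and from 22.8 to 37.8 RPM in colon, against 4465 RPM in the highest heart library, and miR-133a from 167.7 to 1271 RPM in ileum and from 176.7 to 1066 RPM in colon. miR-205, known from squamous epithelium, reached 14.7 RPM in 1 colon library and at most 0.686 RPM in ileum. Depth ranged from 526533 to 6117500 miRNA reads in ileum and from 657053 to 5854229 in colon, and a count of 3 reads, the upper limit that a count of 0 allows, stood for 0.490 to 5.70 RPM. Of 16 pairs of libraries of the same tissue, none agreed within sampling noise (the lowest chi-square was 69.2 per degree of freedom).

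Of 265 miRNAs with enough reads to test, 4 differed between ileum and colon, which is 1.51%: miR-802, miR-215 and miR-455 were higher in ileum (1.13%) and miR-147 was higher in colon (0.377%). Differences were tested on the counts with the edgeR quasi-likelihood test, two-sided and Benjamini-Hochberg adjusted over all 265, with a call at an adjusted p under 0.05, and all 4 were also past 2-fold. The unadjusted p was under 0.05 for 45 miRNAs, of which 18 were higher (6.79%) and 27 lower (10.2%) in ileum. The median difference over all 265 was -0.001 on the log2 scale, the median absolute difference 0.327 and the median standard error 0.308. In 12 of the tested miRNAs (4.53%) no ileum library overlapped any colon library in RPM, with ileum higher in 7 (2.64%) and lower in 5 (1.89%), among them all 4 that were called. With the miR-143 to miR-192 covariate 39 miRNAs were called (14.7%), 8 higher (3.02%) and 31 lower (11.7%) in ileum, and the 4 were among them, with log2 differences of 7.47 for miR-802, 2.86 for miR-215, 1.09 for miR-455 and -1.80 for miR-147. An exact rank-sum test on RPM, adjusted likewise, gave 0.33 for each of the 4. Its smallest possible p with 5 against 4 samples is 0.0159. With only 12 miRNAs free of overlap, no value adjusted over 265 could fall under 0.05, so this test could not call any of them. With duodenum and jejunum in the edgeR fit the adjusted p was 0.0615 for miR-802, 0.29 for miR-215 and miR-147 and 0.266 for miR-455. Without Ileum 4 the main fit called 19, and without Ileum 1, Colon 1 or Colon 2 it called 1.

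**Figure D2:**
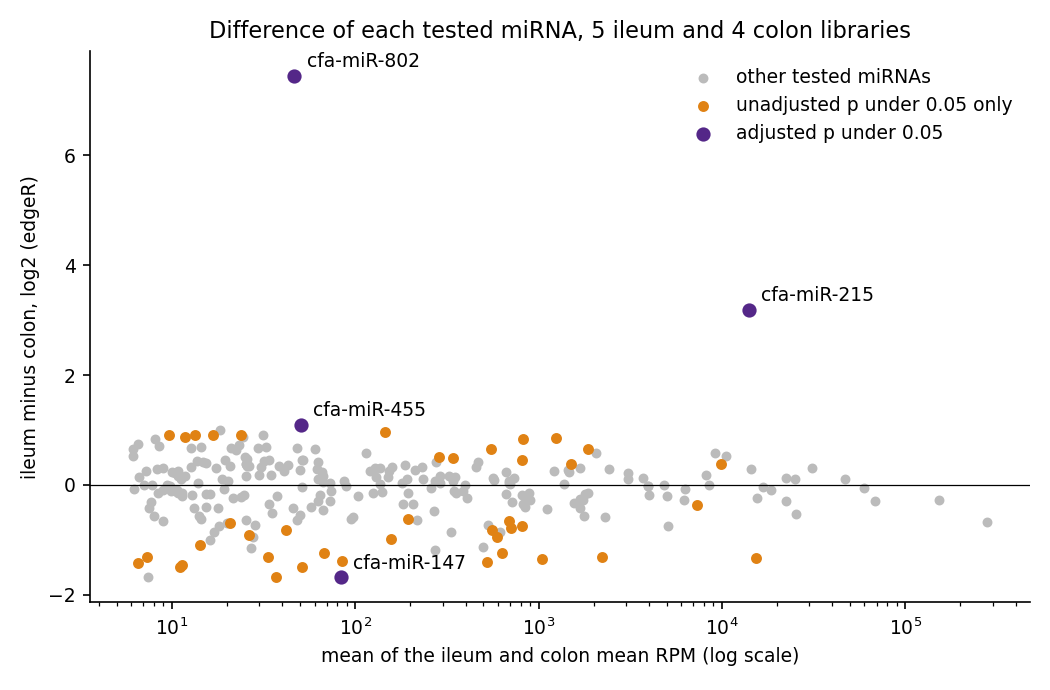
Difference between ileum and colon (log2, edgeR, vertical axis) against the mean of the ileum and colon mean RPM (horizontal axis, log scale) for the 265 tested miRNAs. Purple points are the 4 with an adjusted p under 0.05 and orange points those with only an unadjusted p under 0.05; nearly all points lie between -2 and 2, with cfa-miR-802 and cfa-miR-215 far above.

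The difference was largest for miR-802, a miRNA known from liver, pancreas and small intestine. It measured 103.6, 123.1, 151.6, 39.1 and 47.5 RPM in Ileum 1 to Ileum 5, and 0.512, 0, 0 and 0.464 RPM in the 4 colon libraries. Every ileum library was thus far above every colon library, and the lowest ileum values came from Ileum 4 and Ileum 5. All colon libraries together held 5 reads of miR-802 among 11770489, or 0.425 RPM (95% exact Poisson interval 0.138 to 0.991, counting error only). The mean ileum level was 218.9 times this (93.8 to 674 over that interval). The fitted log2 difference was 7.45 (SE 0.66, adjusted p = 8.44e-05), which depends on how near-empty counts are treated and is no bound.

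Along the gut, miR-802 ranged from 384.0 to 557.6 RPM in jejunum, above every ileum library, and the edgeR test of ileum against jejunum gave a log2 difference of -2.60 (SE 0.36, adjusted p = 0.000815). That comparison shares the ileum libraries with the one against colon. The duodenum spanned 0 to 647.9 RPM, with 647.9 and 619.3 RPM in Duodenum 1 and Duodenum 2 and 0 and 1.56 RPM in Duodenum 3 and Duodenum 4, which also had 2.24% and 0.519% of their reads on miR-192. Among 16 tissues the median of miR-802 was highest in pancreas (2512 RPM), followed by jejunum (507.1 RPM), liver (259.6 RPM) and ileum (103.6 RPM), and colon ranked 11. The acinar markers miR-216a, miR-216b and miR-217 stayed at or under 4.20 RPM in all ileum and colon libraries. Relative to miR-192, miR-802 made 0.0670% ± 0.0129 of its reads in ileum (SD, n = 5) and 0.166% ± 0.0366 in jejunum (SD, n = 5), so that Ileum 4 and Ileum 5, low in RPM, lay at 0.0682% and 0.0849%, within or above the other ileum libraries. The gene MIR802 lies between RUNX1 and SETD4 in the RefSeq annotation of another dog assembly.

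**Figure D3:**
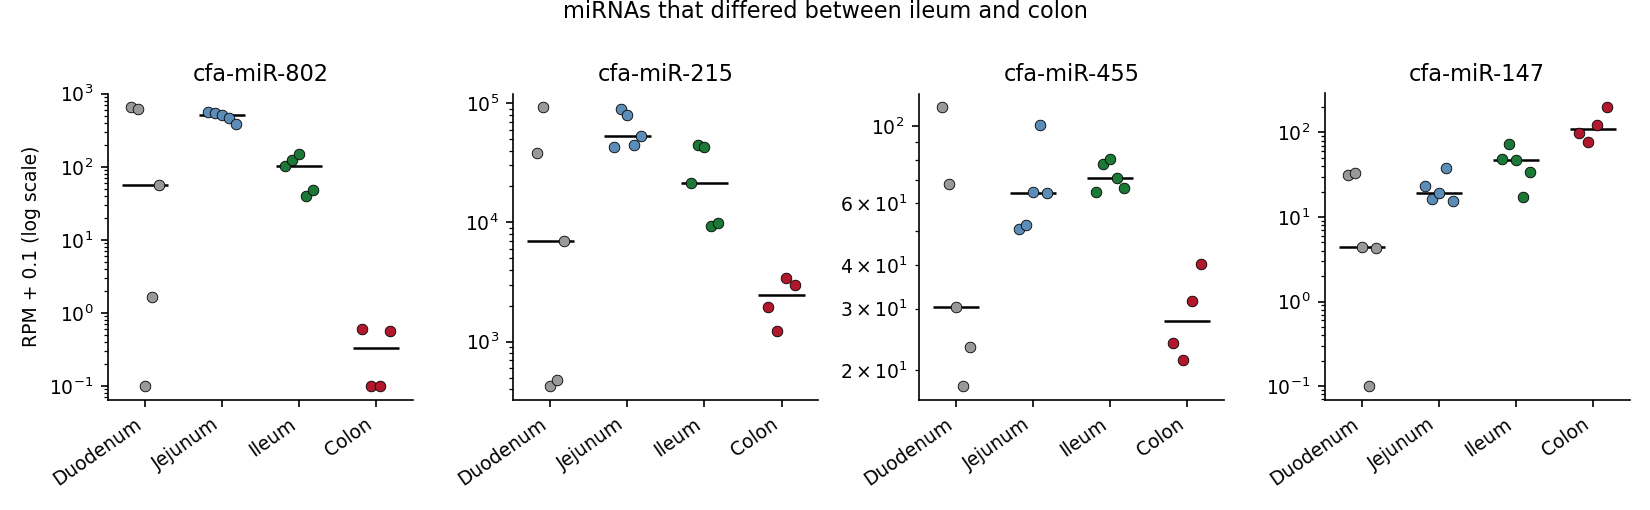
Level (RPM + 0.1, log scale) of the 4 miRNAs that differed between ileum and colon, with 1 point per library of duodenum, jejunum, ileum and colon and a bar at the median. Ileum and colon points do not overlap in any panel. The medians of miR-802 and miR-215 fall from jejunum to ileum to colon, though jejunum and ileum points overlap for miR-215. miR-147 is highest in colon, and the 5 duodenum libraries scatter widely in each panel.

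The second miRNA higher in ileum was miR-215, a p53-responsive miRNA of gut epithelium that shares its seed, the stretch that pairs with targets, with miR-192. Its levels were 21317, 44871, 43174, 9365 and 9800.0 RPM in Ileum 1 to Ileum 5, against 1954, 1218, 3414 and 2961 RPM in Colon 1, Colon 2, Colon 3 and Colon 5. The lowest ileum library was well above the highest colon library, although ileum itself spanned a wide range. The edgeR log2 difference was 3.19 (SE 0.55, 95% CI 1.97 to 4.41), or 9.12-fold, with an adjusted p of 0.0198. The adjusted p rose to 0.0969 without Colon 1, 0.0824 without Colon 2, 0.065 without Colon 5 and 0.0521 without Ileum 1, and the log2 difference stayed between 2.86 and 3.47 in every alternative. In jejunum miR-215 reached 43168 to 89467 RPM, and ileum was lower by the test (log2 -1.53, SE 0.49, adjusted p = 0.0485 by edgeR). Ileum 2 and Ileum 3 lay above the lowest jejunum library, so these groups overlapped, and the comparison shares the ileum libraries.

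The close relatives of miR-215 were not called. miR-192 measured 154549, 253646, 227586, 57382 and 55940 RPM in ileum and 132435, 103785, 179381 and 204565 RPM in colon, with overlapping groups and a log2 difference of -0.28 (SE 0.45, 95% CI -1.27 to 0.71, edgeR adjusted p = 0.770). miR-194, whose gene MIR194 lies beside MIR215 inside the gene IARS2 in the RefSeq annotation, measured 11766, 24986, 20255, 3909 and 4849 RPM in ileum and 5307, 5882, 8586 and 11672 RPM in colon (log2 0.53, SE 0.49, 95% CI -0.56 to 1.62, edgeR adjusted p = 0.557). MIR192 lies elsewhere, between ATG2A and EHD1. In human a further copy of the miR-194 gene lies beside that of miR-192, and this annotation lists no such copy in the dog. The passenger arm miR-192-3p had a log2 difference of -0.24 (SE 0.45). miR-215 and miR-192 are nearly identical in sequence, and how reads that fit both were assigned was not tested. In liver the median was 176166 RPM for miR-192 and 74.8 RPM for miR-215. In kidney these medians were 46094 and 33.9 RPM.

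Ratios within a library compared the epithelial miRNAs with each other. They were chosen after the values were seen, and are given as a description. Reads of miR-215 came to 13.8%, 17.7%, 18.97%, 16.3% and 17.5% of those of miR-192 in the ileum libraries (mean 16.9% ± 1.95, SD, n = 5), and to 1.48%, 1.17%, 1.90% and 1.45% in the colon libraries (mean 1.5% ± 0.301, SD, n = 4). The 5 ileum libraries, which differed several-fold in both miRNAs, lay close together here, and the means differed by 11.2-fold. Jejunum was at 20.1% ± 3.72 (SD, n = 5) and overlapped ileum. The ratio of miR-194 to miR-192 was 8.37% ± 1.18 in ileum and 5.04% ± 0.81 in colon, with no overlap (6.81% in the lowest ileum library and 5.71% in the highest colon library). Relative to miR-194 itself, miR-215 came to 203.1% ± 24.8 in ileum and 30.7% ± 9.09 in colon.

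**Figure D4:**
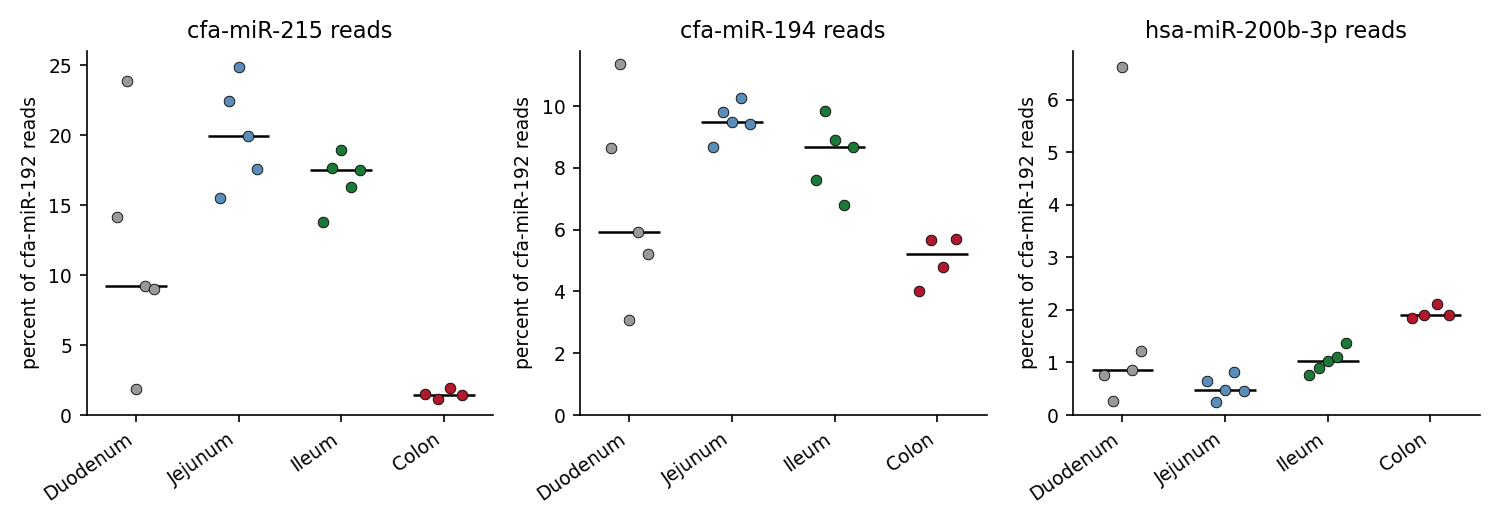
Reads of cfa-miR-215, cfa-miR-194 and hsa-miR-200b-3p as a percent of cfa-miR-192 reads (vertical axes) in each library of duodenum, jejunum, ileum and colon, with a bar at the median. The ileum libraries lie at 13.8% to 18.97% for miR-215 and the colon libraries at 1.17% to 1.90%, and for miR-200b-3p the order is turned, with ileum at 0.768% to 1.37% and colon at 1.84% to 2.11%.

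The smallest called difference was that of miR-455, which lies inside the collagen gene COL27A1 and is best known from cartilage. It measured 64.6, 77.9, 80.5, 70.7 and 66.5 RPM in Ileum 1 to Ileum 5 and 23.7, 21.3, 31.5 and 40.2 RPM in the colon libraries. The ileum values were close together, unlike those of the epithelial miRNAs, and all stood above colon. The edgeR log2 difference was 1.10 (SE 0.23, adjusted p = 0.0402), or 2.14-fold. In jejunum it ranged from 50.5 to 100.4 RPM and did not differ from ileum by the test (log2 -0.01, SE 0.22, adjusted p = 0.966 by edgeR). The other arm, miR-455-3p, had 17.98, 23.2, 25.7, 29.5 and 17.1 RPM in ileum and 9.57, 7.61, 14.7 and 10.7 RPM in colon, again without overlap, with a log2 difference of 0.90 (SE 0.35) and an edgeR adjusted p of 0.266. Among 16 tissues the median of miR-455 was highest in liver (253.2 RPM), then ileum, and colon ranked 9. The call passed without Ileum 4 or Ileum 5 but with none of the other 7 left out (adjusted p 0.0573 to 0.134).

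The 1 miRNA called higher in colon was miR-147, known from Toll-like receptor responses of macrophages and placed by RefSeq between SPATA5L1 and SLC30A4. Its levels were 47.7, 73.2, 46.7, 17.2 and 34.2 RPM in Ileum 1 to Ileum 5 and 98.7, 76.1, 121.8 and 197.3 RPM in Colon 1, Colon 2, Colon 3 and Colon 5. The groups just missed each other, with Ileum 2 beside Colon 2, and the edgeR log2 difference was -1.69 (SE 0.33, 95% CI -2.42 to -0.95, adjusted p = 0.0365). Colon had the highest median of the 16 tissues (110.3 RPM), before ileum (46.7 RPM), jejunum (18.98 RPM) and lung (10.5 RPM). Against jejunum, at 15.3 to 38.3 RPM, ileum had a log2 difference of 0.84 (SE 0.33, edgeR adjusted p = 0.0928). The adjusted p lay between 0.0668 and 0.0988 when any library other than Ileum 2 or Ileum 4 was left out, and at 0.123 with library size as the scaling.

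One more miRNA came close to the threshold. miR-378, a metabolic miRNA encoded inside PPARGC1B, measured 7953, 8160, 7927, 14710.0 and 9226 RPM in Ileum 1 to Ileum 5 and 19920, 20540, 19645 and 24566 RPM in the colon libraries. Colon was higher without overlap, at a log2 difference of -1.33 (SE 0.30) with an edgeR adjusted p of 0.0610, and Ileum 4 stood apart from the other ileum libraries. The other arm, miR-378a-5p, gave -1.32 (SE 0.51, adjusted p = 0.266). Jejunum, at 13457 to 38579 RPM, was also higher than ileum by the test (log2 of ileum minus jejunum -1.41, SE 0.33, adjusted p = 0.0126 by edgeR). The lowest jejunum library lay below Ileum 4, so these groups overlapped, and the comparison shares the ileum libraries. Without Ileum 4 miR-378 passed the test against colon (adjusted p = 5.68e-05), and with any other library left out it did not (0.0811 to 0.209).

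The members of 26 lists, each a family or a group known for a cell type, were read next, and in 24 of them no tested member was called. Over all tested miRNAs 49.8% were higher and 50.2% lower in ileum, 6.79% had an unadjusted p under 0.05 with ileum higher and 10.2% with ileum lower. Values below are log2 differences of ileum minus colon, and p-values are those of the edgeR fit over all 265.

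**Figure D5:**
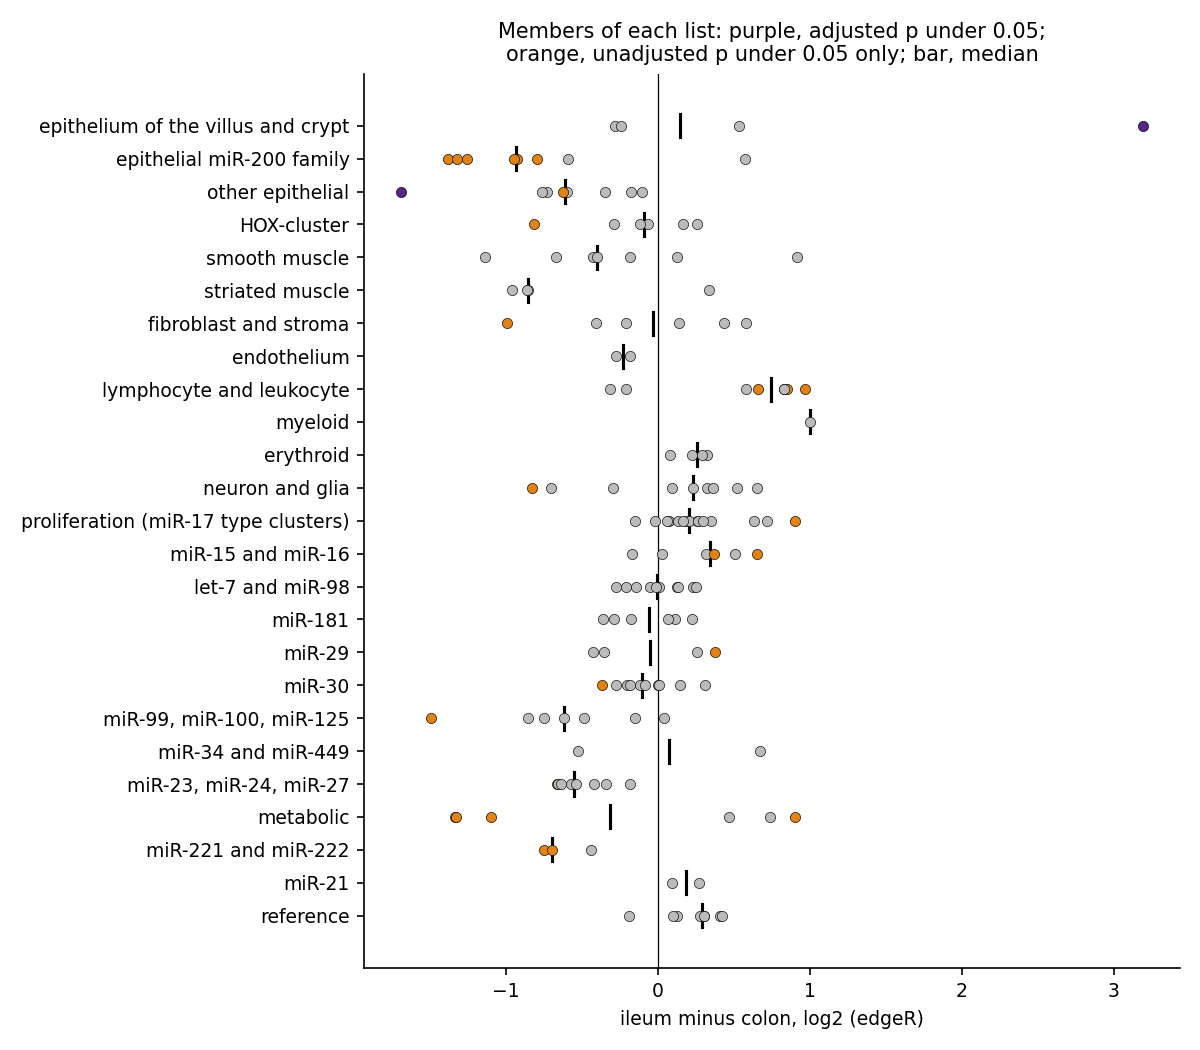
Log2 difference of ileum minus colon (horizontal axis, edgeR) for the tested members of each list (rows), with a bar at the list's median. Purple points have an adjusted p under 0.05, orange points only an unadjusted p under 0.05; the called points are miR-215 in the first row and miR-147 in the third, and the miR-200 and leukocyte rows lean to opposite sides.

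The miR-200 family and the other epithelial list leaned toward colon, and the villus and crypt list did not. In the miR-200 family, repressors of ZEB1 and ZEB2 that mark epithelial cells, 7 of 8 tested members were lower in ileum with a median of -0.93, 6 of them with an unadjusted p under 0.05, and none was called (with the covariate 6 were). The member with the highest level in colon, miR-200b-3p, measured 1187, 2258, 2327, 630.0 and 767 RPM in ileum and 2441, 1966, 3783 and 3890 RPM in colon (-1.32, SE 0.38, adjusted p = 0.111). Only the colon value of Colon 2 lay within the ileum range. As a percent of miR-192 it was 1.03% ± 0.229 in ileum and 1.94% ± 0.118 in colon, without overlap. miR-200a-3p gave -1.25 (SE 0.37, adjusted p = 0.111), miR-200c -0.79 (SE 0.33, adjusted p = 0.287) and miR-429 -0.95 (SE 0.39, adjusted p = 0.287). The exception was miR-141, encoded beside miR-200c, at 0.58 (SE 0.45, adjusted p = 0.503), while the other arm of its hairpin, miR-141-5p, was at -0.59 (SE 0.35, adjusted p = 0.361). Of the 8 tested members of the other epithelial list all were lower in ileum, at a median of -0.61, and miR-147 alone was called. That miRNA is also known from macrophages, and the list was chosen with earlier results of these data known. In this list miR-375 of neuroendocrine cells was at -0.76 (SE 0.39), miR-203 of squamous and glandular epithelium at -0.73 (SE 0.41) and miR-183 of sensory epithelia at -0.62 (SE 0.24), with adjusted p of 0.331, 0.350 and 0.266. The villus and crypt list (miR-192, both arms, miR-194 and miR-215) had 2 members higher and 2 lower in ileum, with a median of 0.15. Of these 4, miR-215 alone was called, higher in ileum.

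Leukocyte miRNAs leaned toward ileum. Of 8 tested members of the lymphocyte and leukocyte list 6 were higher in ileum and 2 lower, with a median of 0.74 and values from -0.31 to 0.97. An unadjusted p under 0.05 was found for 4, all higher in ileum, and none was called in the main fit (3 with the covariate). Without Colon 5 the edgeR fit called miR-150 (adjusted p = 0.042) and miR-342 (adjusted p = 0.0244). Each of them passed in 4 of 24 settings. The members of this list given below are all among the 6 higher ones. miR-150, abundant in mature lymphocytes, measured 1067, 761, 1269, 822 and 1561 RPM in ileum and 347, 361, 453 and 1001 RPM in colon (0.83, SE 0.23, adjusted p = 0.111). Colon 5 was the one colon library inside the ileum range. miR-342 behaved alike at 0.97 (SE 0.29, adjusted p = 0.111), with 162.2 to 296.3 RPM in ileum, 49.4 to 64.7 RPM in 3 colon libraries and 192.5 RPM in Colon 5. miR-142-3p, found in all blood cell lineages, was at 0.85 (SE 0.28, adjusted p = 0.163), and miR-155 of activated lymphocytes at 0.66 (SE 0.30, adjusted p = 0.287). The myeloid miR-223 was at 1.00 (SE 0.46, adjusted p = 0.298), with levels of 6.18 to 39.9 RPM in ileum and 9.13 to 13.5 RPM in colon. The summed level of the leukocyte list was 10319 to 27903 RPM in ileum, lowest in Ileum 4, and 11436 to 22982 RPM in colon, highest in Colon 5, and the part of these cells in the other differences was not tested. The erythroid list, which bears on blood left after perfusion, summed to 1283 to 10556 RPM in ileum and 2063 to 2726 RPM in colon, and its 4 tested members had a median of 0.26 with none called.

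Muscle and stroma did not separate the tissues beyond their spread. The smooth muscle list summed to 142926 to 446625 RPM in ileum and 140293 to 447253 RPM in colon, and its 7 tested members had a median of -0.40 with no unadjusted p under 0.05. miR-143 was at -0.67 (SE 0.54, 95% CI -1.86 to 0.52) and miR-145 at 0.13 (SE 0.66). The striated muscle list had a median of -0.85 over 4 members with none under 0.05, and the fibroblast and stroma list of -0.03 over 6, of which miR-199b-5p had -0.99 (SE 0.26, adjusted p = 0.101). Both endothelial members were near 0 (-0.27 and -0.18), and the 9 tested members of the neuron and glia list had a median of 0.23, none of them called.

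The HOX-cluster miRNAs are encoded among the HOX genes that pattern the body from head to tail. Of 6 tested members none was called between ileum and colon (median -0.09). miR-196a measured 247.3, 460.3, 377.9, 372.0 and 326.7 RPM in ileum and 185.7, 211.6, 222.7 and 543.8 RPM in colon (0.17, SE 0.28, adjusted p = 0.773). miR-196b measured 343.8, 638.8, 507.3, 313.7 and 393.1 RPM in ileum and 550.7, 531.2, 566.1 and 1030.2 RPM in colon (-0.81, SE 0.24, adjusted p = 0.111). The groups overlapped in both. In jejunum the 5 libraries together held 4 reads of miR-196a and 13 of miR-196b among 8582944, and the ileum means were 766 times (299 to 2810.2) and 290.1 times (169.6 to 545) those rates, with 95% exact Poisson intervals for counting error. By the edgeR test of ileum against jejunum, in which 52 of 263 miRNAs (19.8%) were called, 24 higher (9.13%) and 28 lower (10.6%) in ileum, the adjusted p was 1.61e-08 for miR-196a and 2.9e-08 for miR-196b. In duodenum no library exceeded 4.52 RPM of either. miR-10b was also higher in ileum than in jejunum (log2 1.43, SE 0.31, adjusted p = 0.00862) and not different by the test between ileum and colon (-0.29, SE 0.31, 95% CI -0.98 to 0.40), while miR-10a had -0.05 (SE 0.22) and -0.07 (SE 0.24) in these comparisons.

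Among growth-related families miR-15a, a repressor of BCL2, measured 617, 809, 850.2, 393 and 919 RPM in ileum and 271, 320, 343 and 614.8 RPM in colon (0.65, SE 0.20, adjusted p = 0.111). Ileum 4 lay inside the colon range and the other ileum libraries above it. The miR-15 and miR-16 list had 5 of 6 members higher, a median of 0.35 and none called. The miR-17 type clusters, known from proliferating cells, had 13 of 15 higher at a median of 0.21, with 1 unadjusted p under 0.05 and none called. In the opposite direction the miR-23, miR-24 and miR-27 list had 8 of 8 lower at a median of -0.55 with 1 unadjusted p under 0.05, the miR-99, miR-100 and miR-125 list 6 of 7 lower at -0.62, and the miR-221 and miR-222 list 3 of 3 lower at -0.69, with none called in any of them. miR-222 was at -0.75 (SE 0.20, adjusted p = 0.101).

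No member of the remaining lists was called. The let-7 and miR-98 list had 5 of 10 higher with a median of -0.001, miR-181 3 of 6 with -0.06, miR-29 2 of 4 with -0.05, miR-30 4 of 10 with -0.10, miR-34 and miR-449 1 of 2 with 0.08, and miR-21 2 of 2 with 0.18. The reference list, miRNAs that are often used for scaling, had 7 of 8 higher with a median of 0.29, and miR-191 was at 0.31 (SE 0.18). The metabolic list, with miR-378, miR-33 and miR-210, had 3 higher and 3 lower of 6 at a median of -0.31, with values from -1.33 to 0.90 and 4 unadjusted p under 0.05, of which 1 was higher and 3 were lower in ileum. No member of the acinar pancreas list had enough reads to be tested.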

How the data were processed

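Total RNA was extracted from tissue (the labels name 2 different kits), made into small RNA libraries with a TruSeq Small RNA kit and sequenced on an Illumina GAIIx. The deposited counts were made by the authors, who removed adaptors and mapped the reads with OSA v4 on CanFam3.1, allowing no mismatch and at most 10 places in the genome. A read then counted, by bedtools, for a dog, rat or human miRBase locus that it covered by at least 70%. The deposited RPM and totals are other values of the authors, namely counts scaled by the reads aligned to miRNAs. Recomputed RPM differed by a relative 2.89e-09 at most. A miRNA without a row in a sample was set to 0, and 1 name in the table matched no labelled sample and was not used. The counts of the libraries compared summed to 0.0638% to 0.106% more than the total.

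Counts were tested with edgeR 4.0.16 (TMM factors, filterByExpr, robust quasi-likelihood fit, R 4.3.3) on the ileum and colon libraries alone, and likewise for ileum and jejunum, with Benjamini-Hochberg adjustment and a threshold of 0.05. A fold threshold of 2 was counted beside it. DESeq2 1.42.0, limma 3.58.1, other scalings, filters and sample sets served as alternatives. Single values used two-sided exact permutation tests (scipy 1.17.1, 126 splits). All intervals are 95%. Those of the log2 differences come from the edgeR quasi-likelihood fit and so include the spread between libraries. The exact Poisson intervals, like the limit of 3 reads, cover counting error only. Of 265 tested miRNAs 255 matched a RefSeq gene by number (assembly UU_Cfam_GSD_1.0, names and neighbours only).

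The tissues, the 26 lists and the rule for named miRNAs were chosen with earlier results of these data known. The rule takes the 12 largest called differences in each direction without overlap and with a mean of at least 10 RPM in the higher tissue, the 5 with the highest median in each tissue, miR-147, miR-215, miR-15a and list members. Other names were chosen after their values were seen. Samples of the same dog could not be linked.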

Additional observations from a re-analysis of the deposited data

Results flagged for a closer look

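Within a tissue, a library was marked when its gap to the nearest other library was large against the range of its group, a limit that chance passes in about 1 of 20 groups. Of 58 groups tested, 7 were marked, all at the high end, and their causes were not tested. Ileum 4 had 14710.0 RPM of miR-378, against 7927 to 9226 RPM in the other ileum libraries, and 1271 RPM of the muscle miRNA miR-133a, against 167.7 to 398.8 RPM. Ileum 5 had 4873 RPM of miR-155, against 1295 to 2291 RPM. Colon 5 was marked for 4 miRNAs. It had 1001 RPM of miR-150, against 346.6 to 452.7 RPM in the other colon libraries, and 192.5 RPM of miR-342, against 49.4 to 64.7 RPM. It also had 1030.2 RPM of miR-196b, against 531.2 to 566.1 RPM, and 1667 RPM of miR-222, against 668.1 to 826.6 RPM. Ileum 4 and Colon 5 are also the libraries with the highest and the lowest ratio of miR-143 to miR-192 reads in ileum and in colon (log2 ratios of 2.91 and -0.63).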

How the results depend on the processing

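The count of 4 called miRNAs depended on the fit. It was 17 with DESeq2, 36 with limma-voom and quality weights, 10 without a filter and 39 with the miR-143 to miR-192 covariate (chosen after seeing the data), and each of these sets held all 4. It was 2 against a 1.5-fold change, 1 with 16 tissues in the fit, 0 with 4 gut tissues in the fit (23 with an unadjusted p under 0.05) and 0 by an exact rank-sum test on RPM (23 unadjusted). Leaving out 1 library gave 1 to 19, the highest without Ileum 4, and 1 without Ileum 1, Colon 1 or Colon 2 and 2 without Ileum 3 or Colon 3. The called miRNAs changed as well. Without Colon 5 the fit called 3, of which miR-802 alone was among the 4, and the others were miR-150 and miR-342. With library size alone it called 4, of which 3 were shared, with miR-378 called and miR-147 not. Against jejunum the 52 calls became 0 by the rank-sum test (60 unadjusted), 18 with 16 tissues, 21 with 4 gut tissues, 85 with quality weights and 18 against a 1.5-fold change, and 26 to 64 with 1 library left out, with 26 without Ileum 1 and 31 without Jejunum 1. Against colon the rank-sum test could not pass the adjustment, since its smallest p is 0.0159 and only 12 of 265 miRNAs lacked overlap. The cause of the other moves was not tested.

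Of 24 settings, among them the rank-sum test that could call none, miR-802 passed in 22, miR-215 in 17, miR-455 in 13 and miR-147 in 11. For 27 named miRNAs and 23 alternatives, 538 of 619 values kept their direction and their side of the threshold, 33 lost and 47 gained the call, and 1 reversed, miR-192 with upper-quartile factors (0.011). Library size alone moved the median difference to 0.234 and upper-quartile factors to 0.285. The split of calls into higher and lower was 3 and 1 in the main fit, 3 and 2 with RLE factors and 3 and 0 with upper-quartile factors, and against jejunum 24 and 28 in the main fit and 29 and 19 with library size alone. The difference in detected miRNAs was -16.1 with counts as deposited and ranged from -7.8 to 9.2 with 1 library left out, reversing without Colon 1 (-7.8), Ileum 5 (-5.5) and Colon 3 (-1.13). The difference in the share of the 10 most abundant miRNAs ranged from -6.35 to -2.47. No paired analysis was possible because the labels carry no dog number. Depth limits calls near 0: a count of 0 allows up to 0.490 to 5.70 RPM.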

Other observations

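Beside the lists, the miRNAs of the imprinted DLK1-DIO3 region leaned together toward colon. They were chosen after their values were seen, so no test of the group is given. RefSeq lists 39 miRNA genes there in 2 runs, from MIR493 to MIR370 and from MIR379 to MIR410, and all 11 tested miRNAs matched to them were lower in ileum, with log2 differences from -1.68 to -1.15 and a median of -1.40, against -0.001 over all tested miRNAs. Of these, 8 had an unadjusted p under 0.05, none was called in the main fit, and 11 were called with the miR-143 to miR-192 covariate, at a median of -1.55. Their summed level was 983.7, 296.8, 765.1, 2371 and 2011 RPM in Ileum 1 to Ileum 5 and 2141, 3169, 3245 and 2755 RPM in the 4 colon libraries. Ileum 4 lay inside the colon range, and Ileum 4 and Ileum 5, the ileum libraries with the most miR-143 for their miR-192, were the highest of ileum. In colon the order differed: Colon 5, lowest of colon in this ratio, had 2755 RPM, above Colon 1 at 2141 RPM. Duodenum 3 and Duodenum 4, also low in miR-192, had 7374 and 4275 RPM, and the jejunum libraries 117.0 to 484.4 RPM. The part of the tissue mix in this difference was not tested. The covariate is only the ratio of miR-143 to miR-192, added after the data were seen, and cannot separate muscle, stroma and epithelium.

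Further runs of neighbouring genes were also picked after their values were seen. The 3 genes from MIR200B to MIR429 had 5 tested miRNAs, all members of the miR-200 family described above. All were lower in ileum with an unadjusted edgeR p under 0.05 and a median of -1.25. The 6 genes from MIR363 to MIR106A had 5, all higher, with a median of 0.63 and 2 under 0.05. Other runs likewise went in a single direction, such as MIR181D to MIR24-2 (7 of 7 lower) and MIR106B to MIR25 (5 of 5 higher). miR-885, which the study lists for liver and also for brain and sciatic nerve, had 98.2 to 248.3 RPM in jejunum and 3.80 to 11.3 RPM in ileum (log2 of ileum minus jejunum -4.23, SE 0.35, edgeR adjusted p = 4.37e-06). It had at most 4.57 RPM in colon and was too low to test against colon.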
